A study of Mus musculus with 18 samples.

Results

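The amino acid stress response is the gene programme that cells switch on when amino acids run short or proteins misfold. It was followed here through 36 genes, which were all the rows of the count table whose gene symbol was on a list of Atf4 pathway, amino acid synthesis, amino acid transport and tRNA synthetase genes. The list made up 36 of the 55486 genes of the table, and all 36 were among the 14273 genes expressed highly enough to be tested. The rule used gene names only. Stress kinases phosphorylate the initiation factor eIF2, which slows protein synthesis in general but raises translation of the mRNA of ATF4, a bZIP transcription factor. ATF4, often paired with a C/EBP protein, binds target genes that make amino acids, bring them into the cell and charge them onto tRNA, and others that feed back on the pathway. Because much of the control of ATF4 is on translation, the level of Atf4 mRNA is not a measure of ATF4 protein. In fibroblasts the same programme is known for supplying serine, glycine and proline, the building blocks of collagen.

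The libraries were made from polyadenylated RNA of normal fibroblasts (NFs) that had been sorted from FVB/n mouse mammary glands into CD26- and CD26+ cells, by a surface peptidase, and cultured for 7 days in conditioned medium (CM). The medium was either a control or conditioned by 1 of 6 WEPtn tumour lines, which model invasive lobular carcinoma of the mouse breast, and every line was applied once per cell type. The 18 libraries formed 4 groups: CD26- NFs in control medium (n = 3, replicates 1 to 3), CD26- NFs in tumour CM (n = 6, replicates 4 to 9), CD26+ NFs in control medium (n = 3, replicates 10 to 12), and in tumour CM (n = 6, replicates 13 to 18). In each cell type the CM came, in order of replicate, from the lines 13-MCB-17, 10-SJK-221, 18-MCB-12, 13-MCB-44, 13-MCB-90 and 13-MCB-138. The labels give FVB/n as the genotype of every sample, so the groups differ by sorted cell type and medium. The study's methods describe sorts of cells negative for EpCAM, CD49f, CD45 and CD31 from the pooled glands of several mice and a growth medium of the tumour lines with epidermal growth factor, insulin and cholera toxin. The labels do not say whether replicates came from separate sorts, so the p-values measure the spread between these cultures.

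Libraries held 9725723 to 14585349 counts, and the lowest count of any of the 36 genes in any library was 29, for Atf3. Fibroblast collagens were abundant in every library, whereas Dpp4, which encodes CD26, had 0 or 1 count in CD26+ control libraries and 8 to 104 counts in CD26+ CM libraries, so its mRNA did not mark the sorted cells of the control cultures. The 12 epithelial markers examined were all detected, and their summed level ran from 5203 to 5838 CPM (counts scaled to the same TMM-adjusted library size) in CD26- control libraries and from 822 to 1518 CPM in CD26+ control libraries. In tumour CM the same sum ran from 3387 to 5514 CPM in CD26- NFs and from 765 to 1853 CPM in CD26+ NFs. The summed level of 9 fibroblast markers was 16525 to 18490 CPM in CD26- control libraries and 62522 to 79501 CPM in CD26+ control libraries. The sum of 8 immune markers reached at most 29.7 CPM in any of the 18 libraries, most of it Csf1r (up to 26.8 CPM). Csf1r, Lyz2 and Cd68 were detected in every library, whereas Ptprc, which encodes the CD45 used in the sort, Adgre1, Itgam, Cd3e and Cd79a did not exceed 3 counts in any. Replicate 18 stood apart from the other CD26+ CM libraries in cell cycle genes, with a summed level of 1017 CPM against 311 to 548 CPM.

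Some promoters of the set held the letters of a known ATF4 element. RefSeq promoters, from 250 bases before to 50 bases after a transcription start on GRCm38.p6, were found for 31 of the 36 genes, and those of Cth, Nars, Slc1a5, Slc7a5 and Wars were not in the table used. They were searched on both strands for TGATGNAA, the core of the composite ATF4 and C/EBP element, which reads TTNCATCA on the other strand. The letters occurred in promoters of 11 of the 31 genes (35.5%), against 4.51% of all 27025 genes with a promoter in the table, and were not found in those of the other 20. The set was listed as genes of the Atf4 pathway and of amino acid use, so these shares are not an independent test of it. The 11 genes were Aars, Asns, Atf3, Chac1, Gars, Nupr1, Pycr1, Slc1a4, Slc7a11, Trib3 and Vldlr, with 2 matches each in Aars and Slc7a11. Windows of 30 bases are shown for 8 of the 11, those whose levels are given library by library or by range in the results, along the strand of the gene from 5′ to 3′, with the match in capitals.
Asns: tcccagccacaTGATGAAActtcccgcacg
Atf3: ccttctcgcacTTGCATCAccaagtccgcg
Chac1: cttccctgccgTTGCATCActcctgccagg
Nupr1: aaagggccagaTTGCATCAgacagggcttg
Pycr1: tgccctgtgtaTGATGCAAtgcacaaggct
Slc7a11: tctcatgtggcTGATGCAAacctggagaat
Trib3: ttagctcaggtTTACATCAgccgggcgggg
Vldlr: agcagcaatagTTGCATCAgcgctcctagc
On GRCm38.p6 these windows lie on the minus strand at chr6:7693214-7693243 for Asns, chr1:191183425-191183454 for Atf3, chr7:126625562-126625591 for Nupr1, chr11:120643833-120643862 for Pycr1, chr3:50443661-50443690 for Slc7a11 and chr2:152344028-152344057 for Trib3. Those of Chac1 and Vldlr lie on the plus strand at chr2:119351038-119351067 and chr19:27216809-27216838. The match began 23 bases before the start site in Asns, 103 bases before it in Pycr1 and 193 bases before it in Chac1. A match describes the letters only and is not a measured binding site. No other motif was searched.

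**Figure D1:**
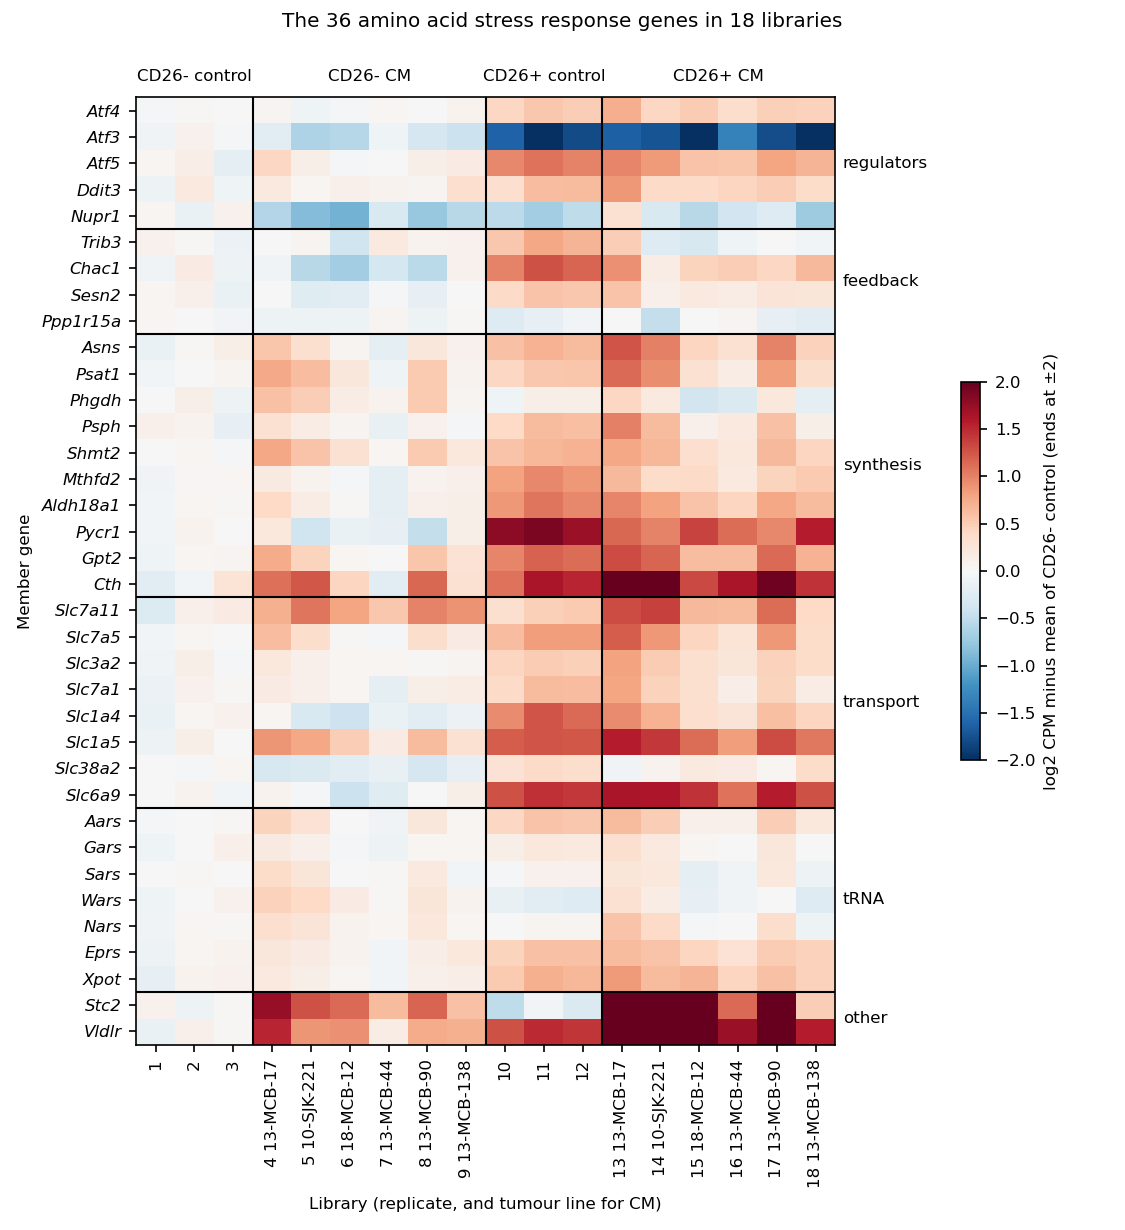
Heat map of the 36 genes (rows, grouped by role) in the 18 libraries (columns, by group and, for CM, by tumour line), coloured by log2 CPM minus the mean of the CD26- control libraries, with colours ending at a difference of 2. Most rows are red in the CD26+ libraries, Atf3 is blue there, and in both cell types the first CM column, line 13-MCB-17, holds the highest of the 6 CM values for 23 of 36 genes.

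The first comparison asked how the programme differs between the sorted populations before any tumour factor is added. CD26+ NFs in control medium had more RNA from most of the pathway than CD26- NFs. Of the 36 genes, 25 were higher and 2 were lower at an edgeR FDR under 0.05, where FDR is the Benjamini-Hochberg adjusted p over all 14273 genes. Among all tested genes 50.3% passed in either direction and 25% were higher in CD26+ NFs. The median log2 fold change was 0.54 over the 36 genes and 0.0064 over all tested genes. No member passed a log2 fold change of 2 in either direction, the limit the study's methods use, beside 5.97% of all tested genes.

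All 5 regulators differed between the cell types in control medium, and they did so in both directions. Atf4 (chr15:80255184-80257541, GRCm38) measured 241, 251 and 246 CPM in CD26- control libraries and 326, 357 and 346 CPM in CD26+ control libraries. The groups did not overlap, and the log2 fold change was 0.48 ± 0.07 (SE, FDR = 4.1e-05). Atf5, a stress-induced relative of Atf4, was at 131, 140 and 112 CPM in CD26- NFs and 247, 270 and 253 CPM in CD26+ NFs (log2 fold change 1.01 ± 0.12, FDR = 1.9e-06). Ddit3, which encodes the pro-apoptotic factor CHOP, read 20.1, 24.7 and 20.3 CPM against 27.4, 33.2 and 33.5 CPM and was higher in CD26+ NFs (log2 fold change 0.53 ± 0.13, FDR = 0.0020). The table has a further gene row for Ddit3, which holds no counts, so reads shared between the overlapping rows could be missing from this value.

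Atf3 and Nupr1 went the other way. Atf3, an early stress factor that is itself a target of ATF4, measured 15.8, 17.5 and 16.3 CPM in CD26- control libraries and 5.26, 3.56 and 4.67 CPM in CD26+ control libraries. This 3.68-fold lower level had the largest log2 size of the 36 genes in this comparison (log2 fold change -1.88 ± 0.22, FDR = 2.0e-06). Nupr1, a small stress-induced chromatin protein, was at 80.4, 71.7 and 82.9 CPM in CD26- NFs and 54.1, 48.1 and 54.9 CPM in CD26+ NFs (log2 fold change -0.58 ± 0.19, FDR = 0.018). The groups were apart for both genes, but the call for Nupr1 was lost without replicate 3 (FDR = 0.057) or replicate 11 (FDR = 0.076).

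Feedback genes were higher in CD26+ NFs in 3 of 4 cases. Chac1, which breaks down glutathione, had 17.2, 20.3 and 16.9 CPM in CD26- control libraries and 36.1, 43.9 and 40.8 CPM in CD26+ control libraries (log2 fold change 1.15 ± 0.19, FDR = 6.2e-05). Trib3, a pseudokinase that restrains ATF4, had 31.5, 30.2 and 27.3 CPM against 43.0, 50.6 and 47.5 CPM (log2 fold change 0.67 ± 0.17, FDR = 0.0027). Sesn2, a leucine sensor that holds back mTORC1, had 71.2, 74.3 and 63.3 CPM against 90.3, 103 and 101 CPM (log2 fold change 0.50 ± 0.10, FDR = 0.00069). None of these overlapped between the cell types. Ppp1r15a, the GADD34 subunit that returns eIF2 to its unphosphorylated form, gave a log2 fold change of -0.16 ± 0.10 (FDR = 0.23), with overlapping groups.

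Among the 10 synthesis genes 8 were higher in CD26+ NFs and none was lower. Pycr1, the last enzyme of proline synthesis in mitochondria, had the largest fold change of these 10 genes in this comparison and measured 18.3, 19.8 and 18.7 CPM in CD26- control libraries and 65.9, 70.4 and 63.2 CPM in CD26+ control libraries. It was 3.51-fold higher (log2 fold change 1.81 ± 0.16, FDR = 1.6e-07), and Aldh18a1, which makes the precursor it uses, was 1.96-fold higher (FDR = 6.4e-06). In mitochondrial one-carbon metabolism, Mthfd2 had 92.6, 99.1 and 99.8 CPM against 170.0, 189 and 177 CPM (log2 fold change 0.88 ± 0.10, FDR = 1.1e-06). Shmt2, which splits serine into glycine and a one-carbon unit, had 145, 150.3 and 143 CPM against 216, 231 and 235 CPM (log2 fold change 0.64 ± 0.16, FDR = 0.0022). Both were apart between the cell types.

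Of the 3 enzymes of serine synthesis only the last passed the threshold. Phgdh, the first enzyme of serine synthesis, read 96.5, 106 and 90.6 CPM in CD26- NFs and 91.7, 106 and 106 CPM in CD26+ NFs, with overlapping groups (log2 fold change 0.05 ± 0.18, FDR = 0.84). Psat1, the next enzyme, read 187, 196 and 202 CPM against 258, 285 and 287 CPM. Its groups did not overlap, but it missed the threshold (log2 fold change 0.50 ± 0.23, FDR = 0.077). Psph, the last enzyme of the branch, was higher at 1.46-fold (FDR = 0.021), a call lost without replicate 3, 11 or 12 (FDR = 0.055 to 0.086).

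The other synthesis genes were Asns, Gpt2 and Cth. Asns, asparagine synthetase and the standard readout of this pathway, measured 121, 137 and 144 CPM in CD26- control libraries and 200.0, 216 and 208 CPM in CD26+ control libraries. It was higher with no overlap (log2 fold change 0.63 ± 0.21, FDR = 0.018), and the call was lost without replicate 1 (FDR = 0.066). Gpt2, which interconverts alanine and pyruvate in mitochondria, was at 29.9, 32.4 and 32.8 CPM against 62.6, 71.7 and 68.8 CPM (log2 fold change 1.09 ± 0.20, FDR = 0.00016). Cth, which makes cysteine, was 2.71-fold higher (FDR = 0.0022) at low levels of 3.00 to 4.33 CPM and 7.69 to 11.3 CPM.

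Of the 8 transporters, 7 were higher in CD26+ NFs, and the groups of all 8 were apart, beside 32.6% of all tested genes that were higher without overlap. Slc6a9, a glycine importer, measured 13.6, 14.3 and 13.2 CPM in CD26- control libraries and 33.3, 37.9 and 37.0 CPM in CD26+ control libraries (log2 fold change 1.39 ± 0.14, FDR = 5.8e-07). Slc1a5, the main glutamine importer, had 49.6, 57.8 and 52.8 CPM against 123, 128 and 126 CPM (log2 fold change 1.24 ± 0.18, FDR = 1.5e-05). Slc1a4, its serine and alanine carrying relative, was 2.16-fold higher (FDR = 7.8e-06). Thus both members of this pair stood more than a log2 unit above the CD26- level.

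Smaller differences were seen for the remaining transporters. Slc7a5, the light chain of the leucine exchanger LAT1, had 149, 161 and 157 CPM in CD26- NFs and 238, 277 and 279 CPM in CD26+ NFs (log2 fold change 0.76 ± 0.20, FDR = 0.0043), and its heavy chain Slc3a2 was 1.38-fold higher (FDR = 0.00095). Slc7a1, which imports arginine and lysine, was 1.46-fold higher (FDR = 0.0028). Slc38a2, a sodium-coupled importer of neutral amino acids, was 1.27-fold higher (FDR = 0.0029). Slc7a11, the cystine importer, read 46.9, 60.5 and 63.6 CPM against 70.3, 78.5 and 81.3 CPM and missed the threshold (log2 fold change 0.43 ± 0.21, FDR = 0.11).

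The tRNA genes were divided. Aars, Eprs and the tRNA export factor Xpot were higher in CD26+ NFs by 1.43-fold, 1.45-fold and 1.55-fold (FDR = 0.0048, 5.3e-05 and 3.0e-05), whereas Gars, Sars, Wars and Nars had log2 fold changes of -0.22 to 0.17 and FDR values of 0.11 to 0.84. Vldlr, a lipoprotein receptor induced by ATF4, was 2.64-fold higher in CD26+ NFs (FDR = 0.0020). Stc2, a secreted stress-induced glycoprotein, was at 9.68, 8.54 and 9.27 CPM in CD26- NFs and 6.39, 8.82 and 7.49 CPM in CD26+ NFs, with overlapping groups (log2 fold change -0.27 ± 0.57, FDR = 0.72).

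Of the 11 genes with the promoter letters 7 were higher and 2, Atf3 and Nupr1, were lower in CD26+ control NFs. Of the 20 with a promoter that lacked them, 15 were higher and 0 were lower. Markers of several cell types moved with this comparison. In CD26+ NFs 10 of 12 epithelial markers were lower and 8 of 9 fibroblast markers higher, with the sums given above. Of the 4 tested pericyte markers 3 were lower and 1 was higher, with a sum over 5 markers of 41.6 to 60.9 CPM against 145 to 163 CPM in CD26- NFs. All 3 tested adipocyte markers were higher (median log2 fold change 3.89), with a sum over 5 markers of 22.3 to 37.8 CPM against 14.3 to 16.0 CPM. Their part in the 27 differences was not tested. In bulk RNA, fewer cells of a type and less RNA per cell cannot be told apart.

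The same comparison in tumour CM asked whether the populations stay apart once tumour factors are present. They did for most of the set, with 24 genes higher and 2 lower in CD26+ NFs, against 58.6% of all tested genes in either direction and 29.3% in the positive direction. The median log2 fold change was 0.38 over the 36 genes and -0.00011 over all tested genes, and no member lay beyond a log2 fold change of 2 (all genes 4.16%). In both media 22 genes were higher in CD26+ NFs, beside 18.9% of all tested genes, and 1, Atf3, was lower in both, beside 19.2%. With the CM line as a replicate block, 31 of 36 genes passed, among them all 26, beside 63% of all tested genes. Here too 10 of 12 epithelial markers were lower in CD26+ NFs, 7 of 9 fibroblast and 3 of 3 tested adipocyte markers were higher, and 1 of 4 tested pericyte markers and 8 of 8 cell cycle genes were lower. The part of these genes in the differences was not tested.

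**Figure D2:**
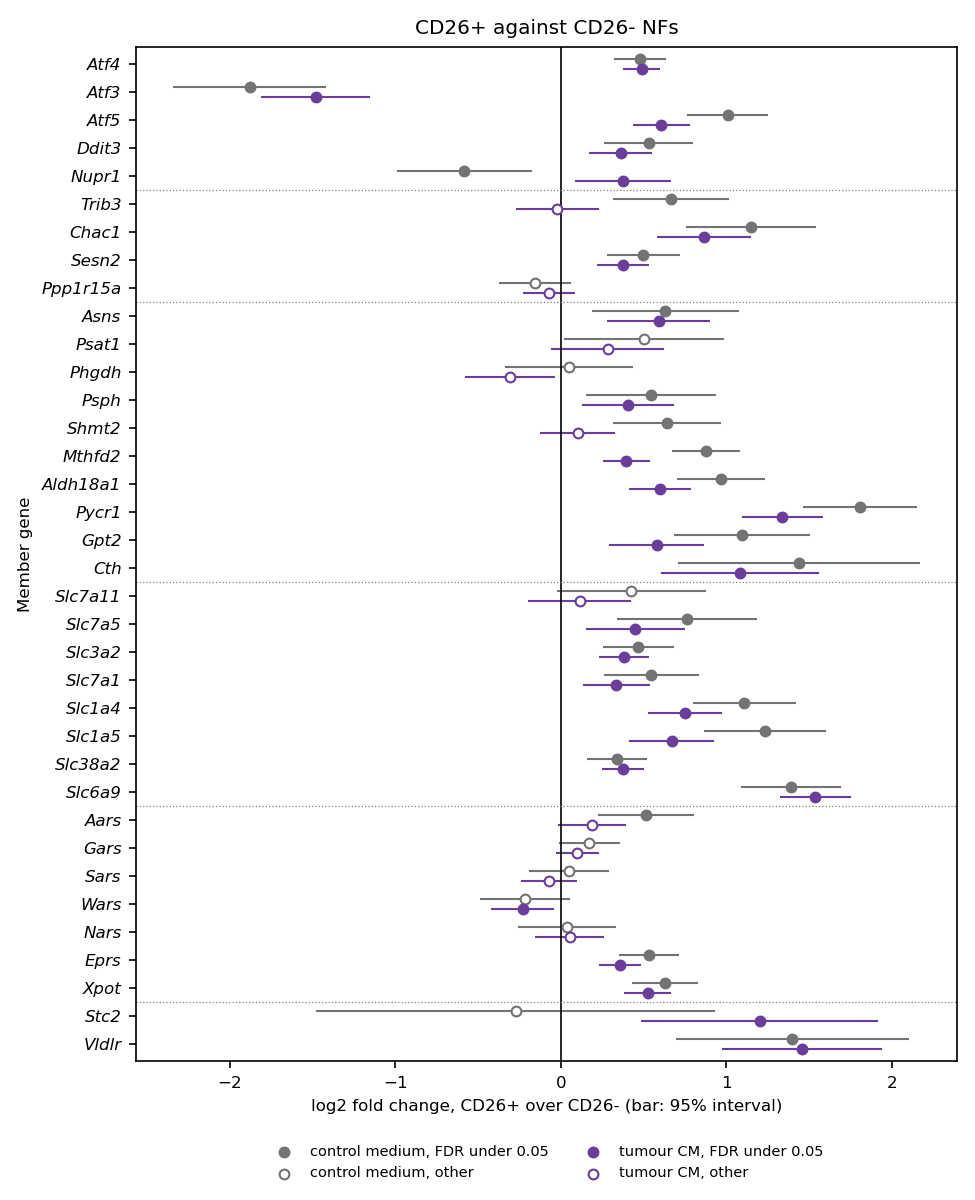
Log2 fold change of CD26+ over CD26- NFs (x axis, with 95% interval) for each of the 36 genes (y axis, by role) in control medium (grey, 3 against 3 libraries) and tumour CM (purple, 6 against 6). Filled points have an FDR under 0.05. Atf3 lies near -1.88 and -1.48, Pycr1 near 1.81 and 1.34, and Nupr1 falls on opposite sides of 0.

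Atf4 ranged from 232 to 260 CPM (median 248) in CD26- CM libraries and from 315 to 409 CPM (median 341) in CD26+ CM libraries, without overlap. Its log2 fold change of 0.49 ± 0.05 (FDR = 4.5e-07) was near that in control medium. Slc6a9 ran from 10.1 to 14.9 CPM (median 13.6) against 29.4 to 43.0 CPM (median 39.3) and had the largest positive value in CM (log2 fold change 1.54 ± 0.10, FDR = 2.4e-09). Atf3 was at 10.7 to 15.6 CPM (median 12.7) in CD26- NFs and 2.59 to 6.34 CPM (median 4.79) in CD26+ NFs, again without overlap (log2 fold change -1.48 ± 0.16, FDR = 3.6e-07).

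Other members were called higher in CD26+ NFs in CM as in control medium. Pycr1 was 2.53-fold higher in CM (log2 fold change 1.34 ± 0.12, FDR = 4.1e-08), Mthfd2 1.32-fold (0.40 ± 0.07, FDR = 8.1e-05), Atf5 1.52-fold (0.61 ± 0.08, FDR = 6.0e-06) and Chac1 1.82-fold (0.87 ± 0.14, FDR = 3.1e-05). Of these genes the change of the difference between the media passed its test for Mthfd2 alone without the line as a block, also for Pycr1 and Atf5 with it, and for Chac1 in neither fit. Of the 25 genes higher in CD26+ NFs in control medium, 3 missed the threshold in CM, namely Trib3, Shmt2 and Aars, with log2 fold changes of -0.02, 0.10 and 0.19 (FDR = 0.90, 0.44 and 0.10). Fewer genes were free of overlap than in control medium, 16 higher and 1 lower (all genes 15.9% and 15.7%) against 28 higher and 3 lower (all genes 32.6% and 32%), where the groups were smaller.

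Asns and the LAT1 light chain kept the direction but overlapped. Asns ran from 119 to 196 CPM (median 149) in CD26- CM libraries and from 165 to 320 CPM (median 226) in CD26+ CM libraries (log2 fold change 0.59 ± 0.15, FDR = 0.0022). Slc7a5 ran from 152 to 238 CPM (median 186) and from 188 to 362 CPM (median 246) (log2 fold change 0.45 ± 0.14, FDR = 0.011). Ddit3 and Sesn2 did not overlap, with log2 fold changes of 0.36 ± 0.09 (FDR = 0.0021) and 0.37 ± 0.07 (FDR = 0.00033).

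Psat1 and Phgdh showed how much the tumour line added to the spread. Without the block Psat1 gave a log2 fold change of 0.28 ± 0.16 (FDR = 0.14), and with the line as a replicate block 0.27 with an FDR of 4.5e-05. Phgdh gave -0.31 ± 0.13 (FDR = 0.051), and with the block -0.32 with an FDR of 9.1e-05, lower in CD26+ NFs. Shmt2, Aars and Gars were the other 3 genes added by the block, with FDR values of 0.017, 0.00027 and 0.042. Wars was lower in CD26+ NFs with or without it (log2 fold change -0.23 ± 0.09, FDR = 0.037 without the block), though 7 of 18 fits without a library lost that call (FDR up to 0.097). Nupr1, the only member called in opposite directions in the 2 media, was higher in CM at 0.38 ± 0.14 (FDR = 0.025), a call lost without replicate 5, 6 or 13 (FDR = 0.057, 0.059 and 0.080).

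The effect of tumour CM on CD26- NFs was small across the set. CM raised Slc7a11, Slc1a5 and Shmt2 and lowered Nupr1 and Slc38a2. These 5 of 36 genes (13.9%) stand beside 15.2% of all tested genes, so the share of the set was near the background. By direction, 3 rose beside 7.88% and 2 fell beside 7.28% of all tested genes, and 5 and 3 genes were higher and lower without overlap beside 10% and 10.3%. No member passed a log2 fold change of 2 (all genes 0.904%). The median log2 fold change was 0.12 over the 36 genes and 0.0052 over all.

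**Figure D3:**
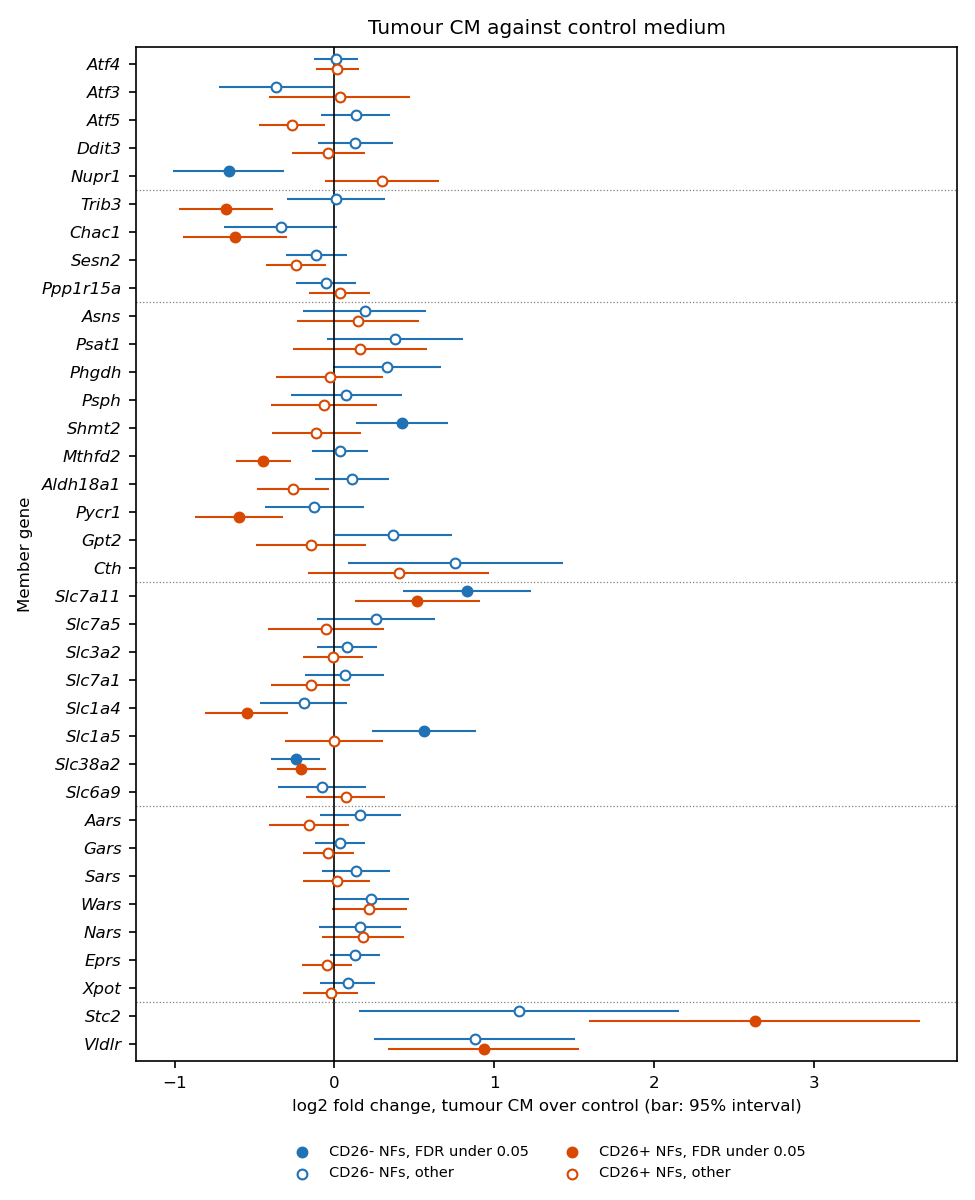
Log2 fold change of tumour CM over control medium (x axis, with 95% interval) for each of the 36 genes (y axis, by role) in CD26- NFs (blue) and CD26+ NFs (orange), each 6 against 3 libraries. Filled points have an FDR under 0.05. Most points lie within 1 of 0, and Stc2 in CD26+ NFs lies at 2.63.

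Slc7a11 rose from 46.9, 60.5 and 63.6 CPM to 82.0 to 119 CPM (median 101), without overlap (log2 fold change 0.83 ± 0.19, FDR = 0.0079). Slc1a5 rose from 49.6, 57.8 and 52.8 CPM to 59.7 to 98.2 CPM (median 78.8), again without overlap (log2 fold change 0.56 ± 0.15, FDR = 0.021). Shmt2 rose from 145, 150.3 and 143 CPM to 151 to 249.8 CPM (median 194) (log2 fold change 0.43 ± 0.14, FDR = 0.044). The lowest CM libraries of Slc1a5 and Shmt2, both from line 13-MCB-44, lay next to the control range.

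Nupr1 fell from 80.4, 71.7 and 82.9 CPM to 40.6 to 63.0 CPM (median 49.0), without overlap (log2 fold change -0.66 ± 0.16, FDR = 0.012). Slc38a2 fell from 489.6, 484 and 506 CPM to 389.8 to 447 CPM (median 416) (log2 fold change -0.24 ± 0.07, FDR = 0.034). Atf4 did not pass, with a log2 fold change of 0.01 and a 95% interval of -0.13 to 0.14 (FDR = 0.95). Asns (0.19 ± 0.18, FDR = 0.52), Psat1 (0.38 ± 0.20, FDR = 0.21) and Phgdh (0.33 ± 0.16, FDR = 0.18) did not pass either, and their CM libraries overlapped the controls. Vldlr, Stc2 and Atf3 were free of overlap but missed the threshold at 0.88 ± 0.30 (FDR = 0.055), 1.16 ± 0.48 (FDR = 0.11) and -0.37 ± 0.17 (FDR = 0.15).

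These calls were sensitive to single libraries of both media. Without the control replicate 1 all 5 calls were lost (FDR = 0.051 to 0.12, all genes 7.79%), and without the control replicate 3 only Slc7a11 passed (all genes 5.82%). The count was 3 without replicate 2, 4, 5 or 8, the last 3 of which were CM libraries (all genes 9.76% to 11.4%). Over the 18 fits without a library, the call for Shmt2 was lost in 10 and that for Slc38a2 in 6. The markers of other cells moved with this comparison too. The summed level of 5 pericyte markers went from 145 to 163 CPM in control libraries to 47.4 to 93.1 CPM in CM, without overlap, with 2 of the 4 tested markers lower (Rgs5 and Mcam). Of the 12 epithelial markers 1 was lower at an FDR under 0.05 and 11 had a negative log2 fold change, 5 of them without overlap. Of the 9 fibroblast markers 4 rose and 1 fell, and their sum was 9813 to 21488 CPM in CM. The part of these markers in the calls was not tested.

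In CD26+ NFs tumour CM raised 3 and lowered 6 genes, beside 28.6% of all tested genes, 15.2% upward and 13.4% downward. Free of overlap were 2 genes upward and 4 downward, beside 13.7% and 11.6%. The risers were Stc2, Vldlr and Slc7a11, and the fallers were Mthfd2, Pycr1, Trib3, Chac1, Slc1a4 and Slc38a2, among them the last enzyme of proline synthesis and a pair of feedback genes. The median log2 fold change was -0.033 over the 36 genes and -0.0040 over all, and the share of the set was 25% beside the 28.6%. Stc2 was the only member beyond a log2 fold change of 2, against 2.01% of all tested genes.

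Stc2 rose from 6.39, 8.82 and 7.49 CPM to 92.6, 59.6, 40.1, 20.2, 55.8 and 12.9 CPM in replicates 13 to 18, a 6.19-fold increase (log2 fold change 2.63 ± 0.49, FDR = 0.00076). All 6 CM libraries were above the controls, and they spread over 7.20-fold among themselves. Vldlr rose from 75.5, 87.3 and 83.7 CPM to 92.5 to 265 CPM (median 149), without overlap (log2 fold change 0.94 ± 0.28, FDR = 0.020). Slc7a11 rose from 70.3, 78.5 and 81.3 CPM to 74.4 to 146 CPM (median 106) and overlapped through replicate 18 (log2 fold change 0.52 ± 0.19, FDR = 0.044).

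Among the genes that fell, Mthfd2 went from 170.0, 189 and 177 CPM to 111 to 152 CPM (median 129), without overlap (log2 fold change -0.45 ± 0.08, FDR = 0.00064). Trib3 went from 43.0, 50.6 and 47.5 CPM to 41.8 CPM in replicate 13 and 23.7 to 29.5 CPM in the other CM libraries (log2 fold change -0.68 ± 0.14, FDR = 0.0017). Pycr1 fell from 65.9, 70.4 and 63.2 CPM to 36.9 to 56.6 CPM (median 41.8) (log2 fold change -0.60 ± 0.13, FDR = 0.0026). Neither Trib3 nor Pycr1 overlapped between the media.

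Chac1 fell from 36.1, 43.9 and 40.8 CPM to 20.0 to 34.0 CPM (median 25.1) (log2 fold change -0.62 ± 0.15, FDR = 0.0060). Slc1a4 fell by 0.55 on the log2 scale (FDR = 0.0029) and Slc38a2 by 0.21 (FDR = 0.042), with overlap in both. Atf4 was at a log2 fold change of 0.02, with a 95% interval of -0.12 to 0.16 (FDR = 0.86). The other pathway readouts did not pass either, with Asns at 0.15 ± 0.18 (FDR = 0.58), Sesn2 at -0.24 ± 0.09 (FDR = 0.054), Atf5 at -0.27 ± 0.10 (FDR = 0.052) and Slc7a5 at -0.05 ± 0.17 (FDR = 0.85).

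The calls for Slc7a11 and Slc38a2 were the least stable, lost in 9 and 8 of the 18 fits without a library (FDR up to 0.15 and 0.11), and that for Vldlr was lost without replicate 10, 11 or 12 (FDR = 0.078, 0.059 and 0.062). Cell cycle genes moved with this comparison, 6 of 8 being lower in CM, with sums of 311 to 1017 CPM against 919 to 971 CPM in control libraries. The fibroblast marker sum also went down, from 62522 to 79501 CPM in control libraries to 29191 to 52131 CPM in CM, without overlap, and 3 of its 9 markers rose and 4 fell. In the other lists 1 of 4 tested pericyte markers and 1 of 12 epithelial markers were lower, and 1 of 3 tested adipocyte markers was higher. The part of these genes in the 9 calls was not tested. Without replicate 18, whose sum of 1017 CPM was near the controls, the count of members was again 9, while the share of all tested genes was 34.9%.

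Only Slc7a11 and Slc38a2 were called in both cell types, with the same direction in each, beside 6.97% of all tested genes called in both and 6.54% called in the same direction, and 24 of 36 genes were called in neither, beside 63.2%. The 2 CM effects use different control libraries and can be set against each other. The difference between them, the effect in CD26+ minus that in CD26- NFs, passed for 3 of 36 genes (8.33%), beside 7.53% of all tested genes, 1 positive beside 4.53% and 2 negative beside 3.01%. Its sign was negative for 27 of 36 genes, with a median of -0.17 against 0.0063 over all tested genes. Nupr1 was positive at 0.96 ± 0.24 (FDR = 0.022), having fallen in CD26- NFs while reaching 47.9 to 96.3 CPM (median 61.7) from 54.1, 48.1 and 54.9 CPM in CD26+ NFs (log2 fold change 0.30 ± 0.17, FDR = 0.20). Mthfd2 was negative at -0.48 ± 0.12 (FDR = 0.021) and Trib3 at -0.69 ± 0.20 (FDR = 0.048), both lower in CM in CD26+ NFs and near 0 in CD26- NFs. Outside the set, the difference was also positive for 2 of 4 tested pericyte markers and negative for 1 of 8 cell cycle genes. All 8 cell cycle genes had a negative value with an unadjusted p under 0.05, and their median was -0.84 on the log2 scale. The part of these genes was not tested.

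**Figure D4:**
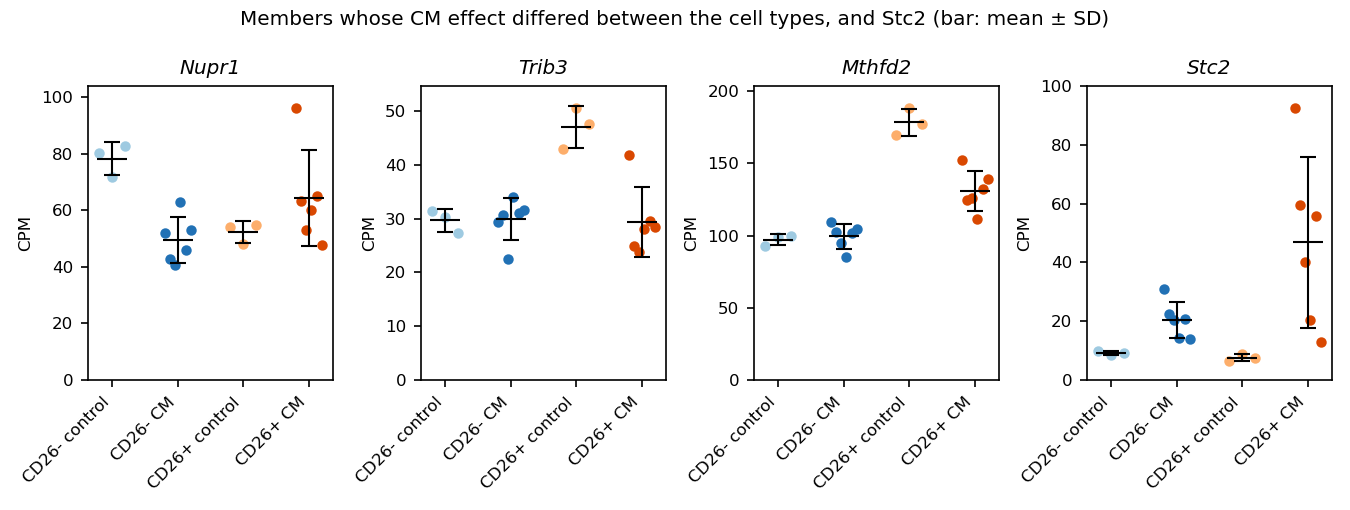
CPM of Nupr1, Trib3, Mthfd2 and Stc2 in each library of the 4 groups (points, n = 3 or 6), with the mean and SD. Nupr1 is lower in all 6 CD26- CM libraries than in the 3 controls, Trib3 and Mthfd2 are lower in all 6 CD26+ CM libraries than in theirs, and Stc2 reaches 92.6 CPM in the highest CD26+ CM library.

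Because the same line gave CM to a culture of each cell type, the line was also used as a replicate block. With the block the count rose from 3 to 14 of 36 genes (all genes 17.6%), and all 3 were kept. Of the 14, 12 were negative, meaning a lower CM effect in CD26+ than in CD26- NFs, beside 8.21% of all tested genes, and Nupr1 and Stc2 were positive, beside 9.42%. The negative genes were Atf5, Trib3, Mthfd2, Shmt2, Psat1, Phgdh, Aldh18a1, Pycr1, Gpt2, Slc7a5, Slc1a5 and Aars, so 7 of the 10 synthesis genes were among them. Their direction was that of the 8 cell cycle genes given above, whose part was not tested here either.

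With the block, the log2 difference was -0.56 for Slc1a5 (FDR = 0.00028), -0.53 for Shmt2 (FDR = 0.00030), -0.52 for Gpt2 (FDR = 0.0015), -0.48 for Mthfd2 (FDR = 0.00042), -0.47 for Pycr1 (FDR = 0.012) and -0.70 for Trib3 (FDR = 0.0078). It was 0.94 for Nupr1 (FDR = 0.0041) and 1.33 for Stc2 (FDR = 0.015). Atf4, Ddit3, Asns, Chac1, Sesn2 and Slc7a11 did not pass, with values of -0.34 to 0.0074 (FDR = 0.16 to 0.96). Over the fits with the block that left out each library in turn, 12 to 16 genes passed, of which 10 to 14 were negative, beside 10.1% to 25.9% of all tested genes. Without the block the count was less stable, at 0 without replicate 1 or 11 (all genes 4.58% and 2.46%), 1 without replicate 3 or 12 (3.31% and 3.97%) and 5 without replicate 18 (16.5%), and the call for Trib3 was lost in 15 of 18 such fits (FDR up to 0.13).

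The last comparison asked whether the level of the programme in tumour CM depended on the tumour line. It did for 16 of 36 genes, against 6.28% of all tested genes, in a test over the 12 CM libraries with a term for cell type. By role these were 7 of 10 synthesis genes (Asns, Psat1, Phgdh, Shmt2, Mthfd2, Aldh18a1 and Gpt2), 4 of 7 tRNA genes (Aars, Sars, Wars and Nars), the transporters Slc7a5 and Slc1a5, the regulator Atf5, Stc2 and Vldlr. The 4 feedback genes had FDR values of 0.062 to 0.48, and Atf4 (FDR = 0.45) and Ddit3 (FDR = 0.48) did not pass either. Of the 16 genes, 11 were called in neither CM effect, as were 44% of the 897 genes of the whole table that passed the test of the lines. At an unadjusted p under 0.05 the count was 28 of 36, beside 22% of all tested genes.

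**Figure D5:**
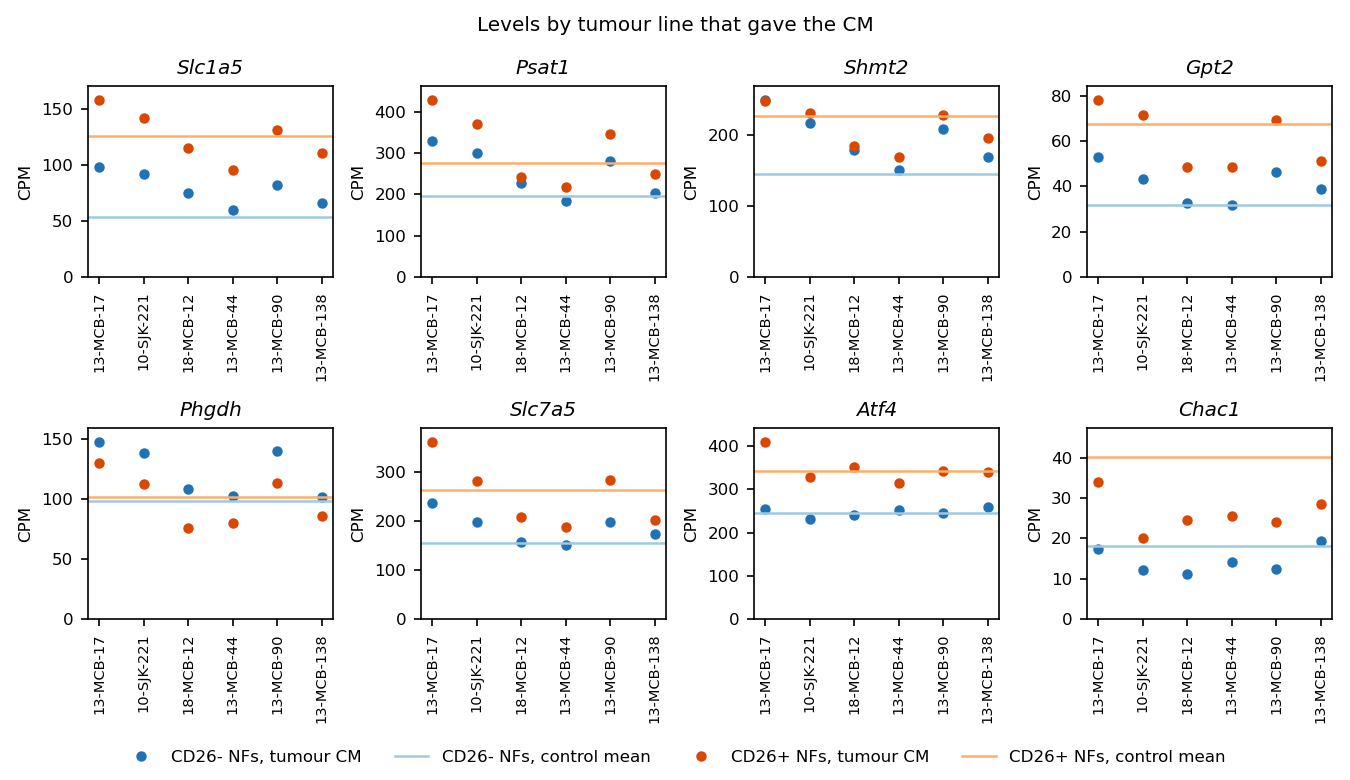
CPM (y axis, from 0) of 8 members in each CM library by tumour line (x axis), in CD26- NFs (blue points) and CD26+ NFs (orange points), with the mean of the 3 control libraries of each cell type as a line. In the first 6 panels line 13-MCB-17 gives the highest point in both cell types, and Atf4 and Chac1 are shown as members that did not pass the test of the lines.

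Psat1 had the smallest p. In CD26- NFs it measured 328, 299, 227, 184, 281 and 204 CPM with the CM of lines 13-MCB-17, 10-SJK-221, 18-MCB-12, 13-MCB-44, 13-MCB-90 and 13-MCB-138, and in CD26+ NFs it measured 427, 371, 242, 216, 347 and 249 CPM in the same order (FDR = 0.0016). The highest line was 1.78-fold above the lowest in CD26- NFs and 1.98-fold in CD26+ NFs, and in both the CM of 13-MCB-17 gave the highest level and that of 13-MCB-44 the lowest. The CD26- control libraries lay at 187 to 202 CPM and the CD26+ control libraries at 258 to 287 CPM, so lines fell on both sides of the controls.

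Slc1a5 was at 98.2, 91.7, 75.1, 59.7, 82.5 and 65.8 CPM in CD26- NFs and 158, 142, 116, 95.2, 131 and 111 CPM in CD26+ NFs, in the order of lines above (FDR = 0.0019). Gpt2 was at 53.0, 43.3, 32.6, 31.6, 46.6 and 38.8 CPM and at 78.1, 71.4, 48.5, 48.7, 69.3 and 51.2 CPM (FDR = 0.0041). Shmt2 was at 249.8, 217, 179.9, 151, 209 and 169 CPM and at 249, 232, 184, 169, 229.5 and 197 CPM (FDR = 0.0045). In each of these genes the lines 13-MCB-17, 10-SJK-221 and 13-MCB-90 gave the 3 highest levels in both cell types.

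Among the other members that passed, the highest line exceeded the lowest by 1.45-fold and 1.72-fold for Phgdh (CD26- and CD26+ NFs, FDR = 0.0050), by 1.57-fold and 1.92-fold for Slc7a5 (FDR = 0.0061) and by 1.66-fold and 1.93-fold for Asns (FDR = 0.010). Stc2 had 2.23-fold and 7.20-fold (FDR = 0.035), and Vldlr 2.61-fold and 2.87-fold (FDR = 0.013). Atf4 itself varied by 1.12-fold and 1.30-fold. Chac1 varied by 1.74-fold and 1.70-fold and missed the threshold (FDR = 0.062).

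Across the whole set, line 13-MCB-17 gave the highest level of the 6 in both cell types for 23 of 36 genes, and 13-MCB-44 the lowest in both for 10. The median log2 difference of the 36 genes from the control mean was 0.27 with 13-MCB-17, 0.13 with 10-SJK-221, 0.11 with 13-MCB-90, 0.092 with 13-MCB-138, 0.029 with 18-MCB-12 and -0.047 with 13-MCB-44 in CD26- NFs. In CD26+ NFs it was 0.24, 0.037, 0.025, -0.18, -0.20 and -0.31 with the lines in that order. Medians of 1 library have no test of their own, and the 36 genes share each library.

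The count moved with the lines in the test, and so did the share of all tested genes. Without 13-MCB-17 9 of 36 genes passed (all genes 3.9%), without 13-MCB-44 11 (3.01%), without 18-MCB-12 12 (4.15%), without 13-MCB-90 13 (3.8%), without 10-SJK-221 15 (4.48%) and without 13-MCB-138 21 (10.2%). In the 13-MCB-17 libraries the cell cycle sum was 986 CPM in CD26- NFs and 311 CPM in CD26+ NFs, the lowest of the latter group, and the epithelial marker sum was 3980 and 1193 CPM, within the range of the other lines in both cell types. The adipocyte marker sum was 89.1 CPM in replicate 13, given this line, against 32.7 to 52.5 CPM in the other CD26+ CM libraries. Other gene lists moved with the lines 13-MCB-17, 10-SJK-221 and 13-MCB-90, which gave the 3 highest medians of the set in both cell types. The fibroblast marker sum was lower with these lines than with the other 3, at 9813 to 12619 CPM against 15451 to 21488 CPM in CD26- NFs and 29191 to 31995 CPM against 41296 to 52131 CPM in CD26+ NFs. The sum of 18 unfolded protein response genes was lower too, at 6929 to 7069 CPM against 7727 to 8237 CPM and at 6774 to 6926 CPM against 8482 to 9562 CPM. So was the immune marker sum, which stayed at or under 24.3 CPM against 25.9 to 27.9 CPM and at or under 24.6 CPM against 24.9 to 29.7 CPM. The cell cycle sum was higher with these lines in CD26- NFs (986 to 1094 CPM against 834 to 965 CPM) and mostly lower in CD26+ NFs (311 to 528 CPM against 527 to 1017 CPM). Lists nearer to the set went in different directions with the same 3 lines. The sum of further amino acid transporters was lower in CD26- NFs, at 342 to 345 CPM against 392 to 407 CPM. In CD26+ NFs it overlapped (488 to 536 CPM against 519 to 656 CPM). That of further amino acid enzymes was higher in CD26- NFs (960 to 991 CPM against 856 to 949 CPM) and overlapped in CD26+ NFs. The sum of kinases, cofactors and partners of the pathway overlapped in both. The sum of 14 further tRNA synthetases was 2184 to 2312 CPM against 1877 to 2018 CPM in CD26- NFs and 2207 to 2356 CPM against 1836 to 1965 CPM in CD26+ NFs, without overlap in either. That of 11 further ATF4 targets was 1582 to 1864 CPM against 1477 to 1554 CPM in CD26+ NFs and overlapped in CD26- NFs (1256 to 1430 CPM against 1243 to 1308 CPM). The part of these lists in the differences among lines was not tested. Each line gave a single CM culture of each cell type, so the line and the preparation of its CM cannot be told apart.

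Other genes of the pathway, taken from lists that share no gene with the 36, showed what lies around the set. Their counts in CD26+ against CD26- control NFs stand beside the 50.3% of all tested genes that passed. Of 11 further ATF4 targets 6 were higher and 2 lower in CD26+ control NFs (72.7%), led by Aldh1l2, the mitochondrial folate enzyme downstream of Mthfd2 (log2 fold change 1.75 ± 0.18, FDR = 5.2e-07), and Pck2, a mitochondrial enzyme that links amino acids to glucose synthesis (1.73 ± 0.19, FDR = 8.8e-07). Sqstm1, an autophagy receptor, was lower (-0.67 ± 0.08, FDR = 3.0e-06). In tumour CM 7 were higher and 3 lower, beside 58.6% of all tested genes in either direction. In CD26+ NFs given CM 2 of the 11 rose and 3 fell, beside 15.2% and 13.4% of all tested genes. Aldh1l2 fell (-0.82 ± 0.15, FDR = 0.00052), while Mthfd1l, another mitochondrial folate enzyme, rose (0.58 ± 0.17, FDR = 0.016).

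Among 16 kinases, cofactors and partners of the pathway, 4 were higher and 4 lower in CD26+ control NFs, a share of 50% that was near the background. Cebpb, a binding partner of ATF4, was higher in CD26+ NFs in control medium (0.88 ± 0.13, FDR = 1.7e-05) and in CM (0.72 ± 0.09, FDR = 1.7e-06), and rose with CM in CD26- NFs (0.39 ± 0.11, FDR = 0.026). Eif2ak3, the endoplasmic reticulum kinase PERK, fell in CD26- NFs given CM (-0.67 ± 0.10, FDR = 0.00037). Eif2ak4, the amino acid sensing kinase GCN2, rose in CD26+ NFs given CM (0.31 ± 0.07, FDR = 0.0021).

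The endoplasmic reticulum branch was covered by a list of its own. Of 18 chaperones and other unfolded protein response genes, 5 were higher and 0 lower in CD26+ control NFs. This share of 27.8% stands beside 25% of all tested genes called higher and 50.3% called in either direction. Without overlap 14 of the 18 were higher, beside 32.6% of all tested genes. The smallest p was that of Xbp1, a splicing-activated transcription factor of that response (0.53 ± 0.08, FDR = 3.8e-05), and the list median was a log2 fold change of 0.23. In CD26+ NFs given CM 1 gene rose and 4 fell (27.8%, beside 28.6% of all tested genes), with Edem1 at -0.49 ± 0.09 (FDR = 0.00044).

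Transporters and enzymes outside the set were more mixed. Of 13 tested further amino acid transporters, 6 were higher and 3 lower in CD26+ control NFs (69.2%). Slc38a1 had the smallest p and was 3.60-fold lower in CD26+ NFs in control medium (FDR = 9.7e-07). In CM it was 2.66-fold lower (FDR = 2.0e-07). Slc1a3, a glutamate importer, was 23.5-fold higher in CD26+ control NFs and fell 12.3-fold with CM in CD26+ NFs (FDR = 1.7e-05 and 2.5e-05). Slc7a2, an arginine importer, rose with CM in both cell types, by 2.26-fold in CD26- NFs (FDR = 0.0089) and 4.84-fold in CD26+ NFs (FDR = 1.1e-05). Of 15 tested further enzymes 1 was higher and 3 lower in CD26+ control NFs (26.7%). In tumour CM 1 was higher and 10 were lower in CD26+ NFs, beside 29.3% of all tested genes in each direction. Got2 was lower in CD26+ NFs in control medium (-0.49 ± 0.06, FDR = 2.8e-06) and in CM (-0.61 ± 0.04, FDR = 3.1e-09). With CM 6 of the 15 rose and 0 fell in CD26- NFs, beside 7.88% and 7.28% of all tested genes. In CD26+ NFs 2 rose and 2 fell, beside 15.2% and 13.4%. Glul, glutamine synthetase, rose 3.22-fold with CM in CD26+ NFs (FDR = 2.5e-05), and Gldc, a subunit of the glycine cleavage system, rose in CD26- NFs (1.62 ± 0.37, FDR = 0.0081) and fell in CD26+ NFs (-0.85 ± 0.28, FDR = 0.030), a difference of -2.47 ± 0.47 (FDR = 0.0059).

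Of 14 further tRNA synthetases, 5 were higher and 2 lower in CD26+ control NFs (50%), against 3 and 0 of the 7 tRNA genes of the set (42.9%). Among all tested genes 25% were higher and 25.4% lower, 50.3% in either direction. Qars, the glutamine enzyme, was lower in CD26+ NFs in control medium (-0.42 ± 0.04, FDR = 6.3e-07) and in CM (-0.35 ± 0.03, FDR = 5.1e-08). Vars and Tars, the valine and threonine enzymes, were higher in control medium (0.45 ± 0.11 and 0.43 ± 0.11, FDR = 0.0017 and 0.0040).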

How the data were processed

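RNA of 18 cultures was sequenced after TruSeq stranded mRNA preparation, single-end per the labels. Per the submitters' processing notes HISAT2 2.1.0, HTSeq and GRCm38 were used, and the authors deposited a table of raw counts per gene without normalization, with 1 further row that names no gene and holds 0 counts. The strand setting of the counting is not given in the sources used here. The labels name no batch. Replicates of a group differed by more than counting error (chi-square per degree of freedom of 3.03 or more), so no library was a copy.

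Genes were kept with filterByExpr by group (14273 of 55486, at least 99.85% of the counts of each library), scaled with TMM and tested in edgeR 4.0.16 (R 4.3.3) by glmQLFit and glmQLFTest, with a mean for each of the 4 groups and all 18 libraries in 1 fit. The common biological coefficient of variation was 0.117. FDR is the Benjamini-Hochberg adjusted p over all tested genes, and a call is an FDR under 0.05. This differs from the study, which used DESeq2 and a log2 limit of 2. Lines were tested in the 12 CM libraries with a term for cell type and 5 for lines. CPM are relative to TMM-scaled library sizes. The steps were tested on simulated data.

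CM libraries given the same line pair the samples: deviations from the group means correlated at r = 0.247 to 0.406 in all 6 pairs, so the line also served as a replicate block. Alternatives were scaling by RLE or upper quartile, DESeq2 1.42.0, no filter, a mean of at least 5 CPM, fits of only the groups compared, the log2 limit, the block, and fits without each library or line. The block without each library was added after seeing the data. Named in full were 10 fixed members and, for each comparison, the up to 4 called members with the smallest p, and from each other pathway list up to 3 genes by the same measure. The members, lists and marker genes were chosen with earlier results of these data known.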

Additional observations from a re-analysis of the deposited data

Results flagged for a closer look

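In 5 of 72 groups of 6 CM libraries, 1 library stood apart from the others by Dixon's criterion, which chance alone would give in about 5% of groups. Line 13-MCB-17 gave 3 of them as the highest value. Ddit3 was at 39.3 CPM in CD26+ CM replicate 13 against 28.0 to 30.4 CPM in the other libraries, and Sesn2 in the same library was at 104 CPM against 74.1 to 83.0 CPM. Slc3a2 was at 178 CPM in CD26- CM replicate 4 against 156 to 163 CPM. The lowest values were Slc7a1 in CD26- CM replicate 7 (line 13-MCB-44), at 135 CPM against 160.4 to 174 CPM, and Trib3 in CD26- CM replicate 6 (line 18-MCB-12), at 22.5 CPM against 29.3 to 33.9 CPM.

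The CM effects of the 2 cell types differed by test for 3 members (8.33%) without the replicate block, beside 7.53% of all tested genes. The difference on the log2 scale was 0.96 for Nupr1, -0.69 for Trib3 and -0.48 for Mthfd2. The call for Trib3 was lost in 15 of 18 fits without a library. The level of cell cycle genes also differed in CD26+ CM libraries, and its part in these differences was not tested.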

How the results depend on the processing

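Of 70 called values of the 36 genes, 0 changed direction under any alternative, 6 lost their call under an alternative that kept all libraries, and 16 lost it in at least 1 fit without a library. The counts of called members stayed within 1.5 times under RLE and upper-quartile scaling, both other filters, DESeq2 and fits of only the groups compared. With the replicate block the difference between the CM effects had 14 called members in place of 3, and the block ended no call. The share of all tested genes was 17.6% with the block and 7.53% without it. With the log2 limit of 2 the counts were 0 in CD26- NFs, 1 in CD26+ NFs, 0 and 0 for the cell types in control medium and CM, and 0 for the difference. Over fits without a library, the CM effect in CD26- NFs had 0 to 7 called members (5.82% to 19.3% of all tested genes), that in CD26+ NFs 6 to 10 (19.3% to 34.9%), the cell types 25 to 28 in control medium (42.7% to 52.4%) and 24 to 27 in CM (55.3% to 59.3%), the difference 0 to 5 (2.46% to 16.5%) and the lines 9 to 21 (3.01% to 10.2%).

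Values near 0 changed sign without being called. Atf4 with CM in CD26- NFs was -0.0011 with RLE scaling, -0.0021 without a filter and -0.0013 with DESeq2, and with upper-quartile scaling Atf4 was -0.013 in CD26+ NFs and -0.022 for the difference. Over fits without a library, Atf4 ran from -0.0064 to 0.025 in CD26- NFs, -0.042 to 0.036 in CD26+ NFs and -0.052 to 0.026 for the difference. Trib3 ran from -0.048 to 0.082 with CM in CD26- NFs and -0.16 to 0.030 between the cell types in CM. Phgdh ran from -0.13 to 0.032 with CM in CD26+ NFs and -0.0010 to 0.12 between the cell types in control medium. Ddit3 ran from -0.13 to 0.0062 and Slc7a5 from -0.19 to 0.010 with CM in CD26+ NFs, and Asns from -0.17 to 0.043 for the difference. The lowest count of a member in a library was 29, and each cell type had 3 control libraries.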
